A study of Mus musculus with 4 samples.

Results

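The genes described here build, move along or pull apart on microtubules: the kinesin motors, the tubulins, a set of spindle proteins and a set of proteins of cytokinesis. They were chosen by symbol from the table of expression values, as every symbol beginning with Kif, every tubulin symbol beginning with Tuba, Tubb or Tubg and a digit, and 17 further genes of the spindle and of cell division. This gave 78 of 28141 genes: 14 mitotic kinesins, 19 kinesins and partners of intracellular transport, 9 other kinesins, 14 tubulins, 9 spindle genes, 8 cytokinesis genes and 5 pseudogenes or antisense transcripts. The genes Kif19a, Kif2b, Tuba3a, Tubb2b and Tubb5 were without a row in the table used here, and Kif1bp was listed under its other symbol, Kifbp. Tubb5 and Tubb2b encode further beta tubulins, so the beta tubulins described below are part of the family.

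The study measured polyadenylated RNA by sequencing in leukaemia cells, labelled LSCs, that came from the bone marrow of C57BL/6 mice. One group of 2 libraries came from wild-type cells (WT), and the other group of 2 libraries from cells in which Ybx1 was conditionally knocked out (Ybx1 cKO), the gene of a Y-box protein that binds DNA and RNA. The series title names chronic myeloid leukaemia; how the leukaemia was started, which promoter drove the deletion, the age of the mice and whether animals were pooled are not given in the sources used here. The comparison of the 2 genotypes asks which transcripts differ when Ybx1 is deleted in these cells.

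Microtubules are hollow polymers of alpha and beta tubulin that grow from rings of gamma tubulin, and kinesins are motors that use ATP to walk along them or to take them apart at their ends. In a dividing cell some kinesins build the bipolar spindle, move chromosomes and organise the midzone between the separating chromosomes, where proteins such as anillin and the exchange factor Ect2 set up the contractile ring. Other kinesins carry vesicles, organelles and RNA in cells that are not dividing. Many of the mitotic genes are transcribed late in the cell cycle, and inhibitors of several of their products have been studied in leukaemia.

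Levels are log2 values, made by rescaling the deposited values (the factor was inferred from replicate noise), and a difference is always cKO minus WT. A gene counted as changed at an adjusted p under 0.05 in the limma fit across all 15527 genes tested. The table holds no counts, so depth is unknown. The labels do not say whether the replicates are separate mice, and p-values cover only the spread among these libraries, which may be technical. Bulk RNA cannot tell fewer cells of one type from less RNA per cell. Ybx1 itself was at 9.31 and 9.41 in WT, against 8.19 and 8.13 in cKO, lower in both cKO libraries. Among markers of the labelled cell type, Kit, Cd34, Flt3 and Meis1 had no row, while Mecom, Gata2 and Ly6a were measured and were lower in cKO (limma adjusted p from 5.15e-12 to 0.0077). Of 7 monocyte and macrophage markers 6 had a row and 5 rose, with a summed log2 level of 16.18 to 16.19 in WT and 16.97 to 16.98 in cKO, and of 10 neutrophil markers 3 had a row (not S100a8, S100a9, Ltf, Camp, Ngp, Ly6g and Elane) and all 3 rose, with a summed log2 level of 11.71 to 11.81 in WT and 13.66 to 13.67 in cKO.

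Of the 78 genes 67 were tested, and 33 of them fell and 8 rose in cKO at a limma adjusted p under 0.05, while 26 were not called. Across all genes tested 37.4% were called, 17.8% lower and 19.5% higher. The median log2 fold change of the 67 genes was -0.63, beside a median of 0.00 for all genes tested (0.00255 before rounding). A fall of at least 2-fold was found for 21 of the 67, beside 3.1% of all genes tested, and a rise of at least 2-fold for 0, beside 2.4%. In 40 of the 67 both cKO libraries lay below both WT libraries, beside 32.4% of all genes tested, and in 17 above them, beside 32.7%. The falls lay mainly in the mitotic kinesins, the spindle genes and the cytokinesis genes (medians of -1.21, -1.19 and -0.93), whereas the transport kinesins had a median of 0.11 (-0.016 when the libraries were scaled to equal sums) and the tubulins one of -0.14. The 11 genes too low to be tested were Kif6, Kif12, Kif21a, Kif26a, Kif27, Tuba3b, Tubg2, Tubb2a-ps2, Tubb4b-ps2, Kif4-ps and the antisense transcript Kif16bos.

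**Figure D1:**
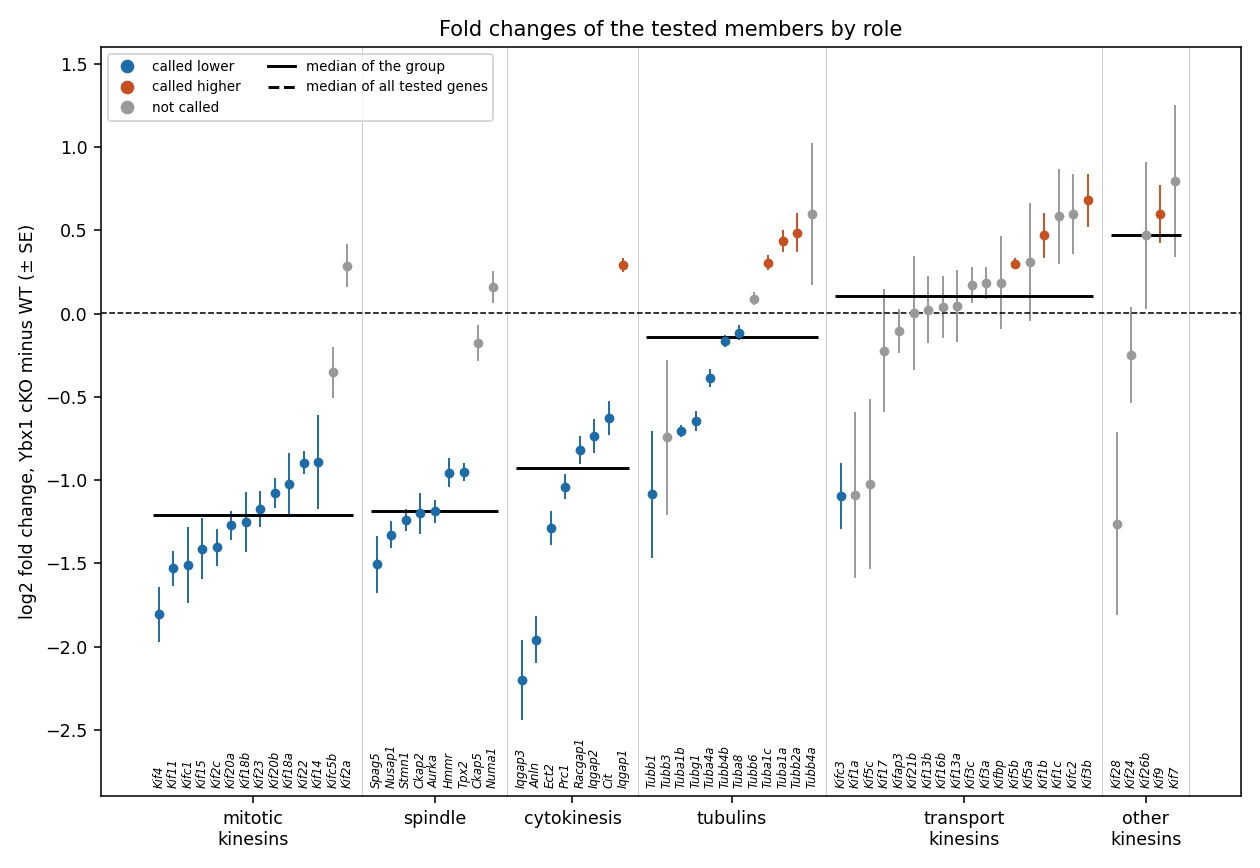
Log2 fold change (cKO minus WT, vertical axis) of the 66 tested genes of the 6 main roles, with bars of 1 SE from the limma fit. Solid lines mark the median of each role and the dashed line that of all tested genes; mitotic kinesins, spindle and cytokinesis genes sit mostly below -0.6, and transport kinesins around 0.

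Genes that mark dividing cells moved with these falls. Of 5 such markers 5 fell, beside 17.8% of all genes tested. The markers Top2a, Mki67, Ccnb1, Mcm2 and Pcna had log2 fold changes of -1.48, -1.35, -1.30, -1.04 and -0.44. Their summed log2 level was 13.29 and 13.29 in WT and 12.30 and 12.26 in cKO. The part of this difference in the results below was not tested.

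Of the 14 mitotic kinesins 12 fell and 0 rose, 10 of them at least 2-fold. Across all genes tested 17.8% fell, 3.1% at least 2-fold, and 19.5% rose. Kif4, a chromokinesin that binds the midzone protein Prc1, showed the largest fall. It was at 7.60 and 7.58 in WT, against 5.92 and 5.64 in cKO, a log2 fold change of -1.81 (SE 0.17, limma adjusted p = 2.68e-09). Both cKO libraries lay far below both WT libraries, and the level in cKO was 28.6% of that in WT. The exons of Kif4 overlap those of Pdzd11 on the opposite strand over 15.1% of their length. Whether the counting used strand is not given in the sources used here, and reads of such pairs may not be told apart.

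Motors that build the bipolar spindle fell together. Kif11, the motor known as Eg5 that pushes the spindle poles apart, had log2 levels of 8.78 and 8.71 in WT and 7.14 and 7.29 in cKO, a log2 fold change of -1.53 (SE 0.11, limma adjusted p = 1.55e-11). Kif15, which supports Kif11 in keeping the poles apart, had levels of 7.14 and 7.16 in WT and 5.55 and 5.93 in cKO (log2 fold change -1.41 with an SE of 0.18, limma adjusted p = 7.42e-07). The 2 groups did not overlap for either gene, and the cKO libraries kept 34.6% and 37.6% of the WT level. Kifc1, a minus-end motor that focuses spindle poles, had levels of 6.50 and 6.84 in WT and 4.87 and 5.45 in cKO, a log2 fold change of -1.51 (SE 0.23, limma adjusted p = 7.64e-06). Its neighbour in sequence, Kifc5b, was at 7.01 and 6.94 in WT, against 6.57 and 6.67 in cKO (log2 fold change -0.35, limma adjusted p = 0.078) and was not called. Its groups did not overlap, but the same was so, with cKO lower, for 32.4% of all genes tested. With libraries scaled to equal sums Kifc5b was called lower. Of the 50-base words in Kifc1 transcripts, 38.6% also occur in Kifc5b, so the split of reads between this pair is uncertain. Summed over both genes, the log2 level was 7.78 and 7.89 in WT and 6.96 and 7.19 in cKO, a difference of -0.76.

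Motors that act on chromosomes and on microtubule ends fell as well. Kif2c, also called MCAK, takes microtubules apart at centromeres, and its levels were 8.38 and 8.38 in WT and 6.98 and 6.97 in cKO. Its log2 fold change was -1.41 (SE 0.11, limma adjusted p = 2.88e-10), and the libraries of each group lay within 0.02 of each other. Kif22, a chromokinesin that pushes chromosome arms towards the spindle equator, had levels of 9.62 and 9.60 in WT and 8.71 and 8.72 in cKO (log2 fold change -0.90, SE 0.07, limma adjusted p = 1.48e-10). Kif18a, which dampens the swings of chromosomes at metaphase, and its relative Kif18b, which shortens astral microtubules, fell by 1.02 and 1.25 on the log2 scale. Kif2a takes microtubules apart too, in dividing and in resting cells, and was not lower: its levels were 7.43 and 7.23 in WT and 7.50 and 7.74 in cKO (log2 fold change 0.29, limma adjusted p = 0.088). That value passed the threshold when the libraries were shifted to one median (log2 fold change 0.35, limma adjusted p = 0.030) and without cKO replicate 1 (0.41, limma adjusted p = 0.016). Exons of Kif2a overlap Dimt1 on the opposite strand over 19.2% of their length.

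The kinesins of the midzone and of abscission fell by similar amounts. Kif20a, which carries the chromosomal passenger complex to the midzone, had levels of 9.47 and 9.35 in WT and 8.01 and 8.27 in cKO, a log2 fold change of -1.27 (SE 0.09, limma adjusted p = 2.03e-11). Kif23, the motor of the centralspindlin complex, had levels of 8.51 and 8.41 in WT and 7.30 and 7.28 in cKO (log2 fold change -1.17, SE 0.11, limma adjusted p = 2.6e-09). Kif20b, a motor needed late in cytokinesis, was at 8.90 and 8.95 in WT, against 7.85 and 7.83 in cKO, a log2 fold change of -1.08 (SE 0.09, limma adjusted p = 5e-10). None of these 3 genes had overlapping groups. Kif14, which places citron kinase at the midbody, was the lowest of the mitotic kinesins, with levels of 5.51 and 5.30 in WT and 4.34 and 4.69 in cKO. Its call (a difference of -0.89, SE 0.28, limma adjusted p = 0.014) was lost without WT replicate 1 (limma adjusted p = 0.14) and without cKO replicate 1 (limma adjusted p = 0.050). Exons of Kif20a overlap Cdc23 on the opposite strand over 29.3% of their length.

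**Figure D2:**
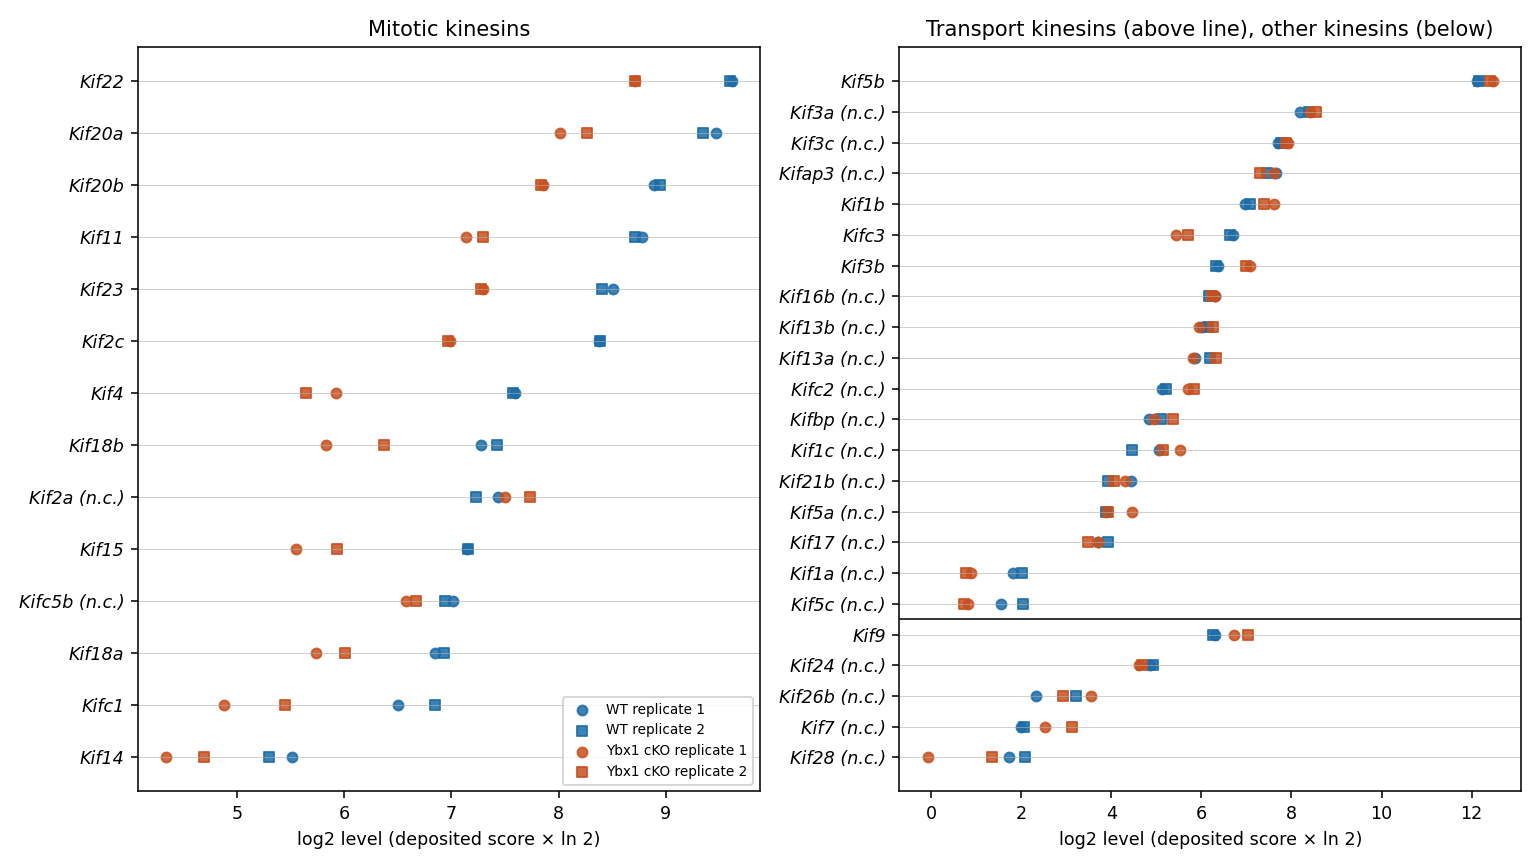
Log2 level (deposited score times ln 2, horizontal axis) of each tested kinesin in each library, with circles for replicate 1, squares for replicate 2, blue for WT and orange for Ybx1 cKO; n.c. marks genes that were not called. In 13 of the 14 mitotic kinesins both cKO points lie to the left of both WT points, Kif2a being the exception. Such a separation with cKO lower was found in 32.4% of all genes tested. Most transport kinesins overlap or lie slightly to the right.

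The promoters of the mitotic kinesins were searched for short sequences that many of them hold. Promoters of cell cycle genes are known to hold a cell cycle gene homology region, with the core TTTGAA on one strand or TTCAAA on the other, often downstream of CCAAT boxes, and Y-box proteins take their name from binding an inverted CCAAT box. RefSeq promoters (GRCm38.p6, 250 bases before to 50 after the annotated start) were found for 62 of the 78 genes. The core was in 11 of 14 promoters of mitotic kinesins, so not all of them hold it. The 30 bases around the core closest to the start are printed below, 5′ to 3′ on the strand of the gene, with the core in capitals, for the mitotic kinesins with a core within 20 bases of the start and for the pair Kifc1 and Kifc5b.
Kif11 (chr19:37376351-37376380, + strand): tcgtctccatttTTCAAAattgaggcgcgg
Kif15 (chr9:122951050-122951079, + strand): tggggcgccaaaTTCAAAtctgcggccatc
Kif22 (chr7:127042420-127042449, - strand): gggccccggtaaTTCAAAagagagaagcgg
Kif4 (chrX:100626072-100626101, + strand): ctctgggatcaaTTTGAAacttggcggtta
Kif23 (chr9:61946780-61946809, - strand): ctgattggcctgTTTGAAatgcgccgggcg
Kif18b (chr11:102925104-102925133, - strand): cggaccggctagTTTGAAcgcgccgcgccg
Kif20b (chr19:34922353-34922382, + strand): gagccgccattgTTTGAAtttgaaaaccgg
Kifc1 (chr17:33890615-33890644, - strand): cggaggttgaaaTTCAAAagtggcgggtgt
Kifc5b (chr17:26917108-26917137, + strand): cggaggttgaaaTTCAAAagtgactggtgt

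In Kif11, Kif15 and Kif22 the core begins 19, 19 and 17 bases before the start, and in the other printed kinesins after it, between 2 bases for Kifc1 and 30 for Kifc5b. The sites of Kifc1 and Kifc5b are identical at 28 of 30 bases. The 100 bases that precede the Kif11 start hold both motifs, an inverted CCAAT box and the core, shown in capitals:
Kif11 (chr19:37376282-37376381, + strand): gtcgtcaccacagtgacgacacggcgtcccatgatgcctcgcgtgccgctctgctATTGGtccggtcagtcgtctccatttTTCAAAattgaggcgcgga

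Of the 9 spindle genes 7 fell and 0 rose, 5 of them at least 2-fold, beside 17.8%, 19.5% and 3.1% of all genes tested. Spag5, also called astrin, which ties microtubules to kinetochores, had levels of 7.37 and 7.21 in WT and 5.77 and 5.80 in cKO, a log2 fold change of -1.51 (SE 0.17, limma adjusted p = 9.05e-08). Nusap1, which bundles spindle microtubules near chromosomes, was at 9.42 and 9.33 in WT, against 8.05 and 8.05 in cKO (log2 fold change -1.33, SE 0.08, limma adjusted p = 1.76e-12). Stmn1, or stathmin, which binds free tubulin dimers, had levels of 10.79 and 10.86 in WT and 9.45 and 9.72 in cKO (log2 fold change -1.24, SE 0.07, limma adjusted p = 1.49e-13). In each of these genes both cKO libraries were below both WT libraries, and Stmn1 had the smallest adjusted p of all 67. Of the 50-base words of Stmn1 18.9% also occur in other genes.

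The kinase Aurka and its activator Tpx2 both fell. Aurka, the spindle pole kinase, had levels of 9.92 and 9.82 in WT and 8.66 and 8.71 in cKO (log2 fold change -1.19, SE 0.07, limma adjusted p = 7.27e-13). Tpx2, which switches the kinase on and nucleates microtubules around chromosomes, was at 10.62 and 10.54 in WT, against 9.63 and 9.63 in cKO (log2 fold change -0.95, SE 0.05, limma adjusted p = 4.58e-13). Ckap2, a microtubule protein of the spindle, fell by 1.20 on the log2 scale, and Hmmr, a spindle pole protein first known as a receptor for hyaluronan, by 0.95. The 2 spindle genes not called were Ckap5, a microtubule polymerase, and Numa1, which anchors dynein at the poles. Their log2 fold changes were -0.18 (SE 0.11, limma adjusted p = 0.23) and 0.16 (SE 0.10, limma adjusted p = 0.21). For Ckap5 the libraries overlapped, at 8.32 and 8.21 in WT and 7.92 and 8.25 in cKO, and it was called lower without cKO replicate 2 (-0.34, limma adjusted p = 0.011) and with libraries scaled to equal sums (-0.30, limma adjusted p = 0.025).

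Cytokinesis genes held the 2 largest falls of all 67, Iqgap3 and Anln. Of the 8 cytokinesis genes 7 fell and 1 rose, beside 17.8% lower and 19.5% higher across all genes tested. Iqgap3, a scaffold of proliferating cells, had levels of 6.51 and 6.59 in WT and 4.43 and 4.26 in cKO, and the cKO libraries kept 21.8% of the WT level. Anln, or anillin, which links the contractile ring to the membrane, had levels of 8.16 and 8.01 in WT and 6.04 and 6.21 in cKO, so that 25.7% of the WT level was left. The 3 Iqgap genes, which encode related scaffolds that bind actin and small GTPases, went separate ways. Iqgap3 fell by 2.20 log2 units (SE 0.24, limma adjusted p = 5.54e-08) and Iqgap2, at 8.56 and 8.41 in WT and 7.83 and 7.68 in cKO, by 0.73 (SE 0.10, limma adjusted p = 2.47e-06). Iqgap1, the widely expressed member, rose from 10.80 and 10.83 in WT to 11.09 and 11.13 in cKO (log2 fold change 0.29, SE 0.04, limma adjusted p = 4.1e-06). For each of the 3 genes the groups did not overlap.

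The other members that act in the midzone and ring fell. Ect2, the exchange factor that activates RhoA, had levels of 8.84 and 8.99 in WT and 7.75 and 7.50 in cKO (log2 fold change -1.29, SE 0.10, limma adjusted p = 2.03e-10). Racgap1, the partner of Kif23 in centralspindlin that recruits Ect2, was at 9.34 and 9.34 in WT, against 8.65 and 8.40 in cKO (log2 fold change -0.82, SE 0.08, limma adjusted p = 1.72e-08). Prc1, which crosslinks midzone microtubules and binds Kif4, had levels of 9.64 and 9.53 in WT and 8.52 and 8.57 in cKO (log2 fold change -1.04 with an SE of 0.07, limma adjusted p = 3.07e-11). The groups did not overlap for any of the 3. Cit, the citron kinase that Kif14 places at the midbody, showed the smallest fall of the group, by 0.63 log2 units (SE 0.10, limma adjusted p = 1.91e-05).

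The same promoter core stood near the start of several spindle and cytokinesis genes, and 5 of those with the core within 33 bases are printed as before, with the core in capitals.
Spag5 (chr11:78301582-78301611, + strand): gtgcgtattgggTTCAAAtagaggcggcgg
Aurka (chr2:172370521-172370550, - strand): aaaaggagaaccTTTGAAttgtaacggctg
Iqgap3 (chr3:88082020-88082049, + strand): agcggcgggagaTTCAAAactggcaggaga
Anln (chr9:22389168-22389197, - strand): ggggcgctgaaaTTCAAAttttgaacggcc
Prc1 (chr7:80294434-80294463, + strand): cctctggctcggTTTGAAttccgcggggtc

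The core TTTGAA or TTCAAA was counted over the whole window of 250 bases before to 50 after the start. It was present in 22 of 30 promoters of the members that fell (20 of 28 genes with a promoter), or 73.3%. Ect2 and Prc1 each entered more than once, with overlapping windows that hold the same core. Members were chosen by symbol, so no interval is given. The core was present in 0 of 9 promoters of the members that rose and in 4 of 21 of those not called. Among 13462 promoters of tested genes 13.0% held it, among promoters of all genes called lower 15.9%, and among all 32851 promoters 17.9%. By role it was found in 11 of 14 promoters of mitotic kinesins, 5 of 7 of spindle genes, 7 of 10 of cytokinesis genes, 1 of 15 of transport kinesins and 2 of 12 of tubulins. Within 50 bases on either side of the start, a window chosen after the data were seen, the share was 60.0% of the promoters of members that fell, against 3.34% of promoters of tested genes.

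CCAAT or ATTGG was found in 18 of 30 promoters of members that fell, 6 of 9 of those of members that rose, 8 of 21 of those not called, and 37.8% of promoters of tested genes. With only 150 bases before the start it was found in 18 of 30, 3 of 9 and 7 of 21 of these promoters and in 29.9% of those of tested genes. A CCAAT box together with the core or its variant TTCGAA was found in 17 of 30 promoters of members that fell and in 6.05% of promoters of tested genes. TTCGAA itself was in 0 of the 30, and in 1.99% of promoters of tested genes. Of motifs of the E2F type, searched on both strands, TTTCGCGC was in 0 of the 30. TTTGGCGC was in 2, those of Kif15 and Kif18a. In promoters of tested genes the shares of TTTCGCGC and TTTGGCGC were 0.62% and 0.89%. Words this rare cannot show whether the members that fell lack such sites. Across all 10601 tested genes with a promoter, 20.4% were called lower and 21.5% higher. Among the 1632 genes with the core 25.2% were called lower and 19.2% higher. For the 4543 genes with CCAAT or ATTGG the shares, 21.8% lower and 21.1% higher, were near those of all. With both in 1 promoter (667 genes) they were 29.2% and 17.2%. The letters describe the sequence only, and no binding was measured.

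The transport kinesins behaved otherwise. Of 18 tested members 3 rose and 1 fell, and 14 were not called, a share of calls below the 37.4% of all genes tested. Kif5b, the ubiquitous heavy chain of kinesin-1, rose from 12.11 and 12.17 in WT to 12.47 and 12.41 in cKO (log2 fold change 0.30, SE 0.03, limma adjusted p = 4.5e-08). Kif3b, a subunit of the kinesin-2 motor, rose from 6.36 and 6.33 to 7.07 and 6.98 (log2 fold change 0.68, SE 0.16, limma adjusted p = 0.0013). Both cKO libraries were above both WT libraries for the 2 genes. The kinesin-2 partners Kif3a and Kif3c, at 0.19 and 0.17 on the same scale, were not called (limma adjusted p = 0.14 and 0.24), nor was the adaptor Kifap3 of that motor (log2 fold change -0.10, limma adjusted p = 0.60). Kif1b, a carrier of mitochondria and vesicles, rose by a log2 fold change of 0.47 (limma adjusted p = 0.0078), a call lost without WT replicate 1 (limma adjusted p = 0.068) and without cKO replicate 1 (limma adjusted p = 0.070).

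Kifc3, a minus-end motor, was the transport kinesin that fell, from 6.71 and 6.63 in WT to 5.43 and 5.71 in cKO (log2 fold change -1.10, SE 0.20, limma adjusted p = 7.69e-05). Of its 50-base words 20.7% also occur in other genes, so part of its reads may not be its own. The neuronal kinesins Kif1a and Kif5c, named after their values were seen, lay near the lower limit of the test and had log2 fold changes of -1.09 and -1.02 that did not pass (limma adjusted p = 0.095 and 0.13). Neuron markers were near the bottom of the scale in all libraries, with summed log2 levels of 1.78 and 2.12 in WT and 1.55 and 2.14 in cKO. Of the 5 other kinesins tested, Kif9, a kinesin of motile cilia, rose from 6.30 and 6.26 to 6.71 and 7.04 (log2 fold change 0.60, SE 0.17, limma adjusted p = 0.0076). That call was lost without cKO replicate 2 (limma adjusted p = 0.084). The 2 at the highest level among those not called were Kif24 and Kif26b, with log2 fold changes of -0.25 and 0.47 (limma adjusted p = 0.56 and 0.46).

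The motor groups held different shares of the kinesin level in the 2 genotypes. After division by exonic length, the mitotic kinesins made up 47.5% ± 0.94 (SD, n = 2) of the summed kinesin level in WT and 26.5% ± 1.48 in cKO, while the transport kinesins went from 50.9% ± 0.94 to 71.0% ± 1.84. Kif5b alone accounted for 35.2% ± 0.68 in WT and 50.9% ± 1.79 in cKO. The groups did not overlap for any of these shares. The partners Kifap3 and Kifbp are counted with the transport kinesins. Unlike the tubulin shares, these were not recomputed with the scores read as plain log2, so they rest on the inferred factor. With 2 libraries a group an exact test cannot reach the threshold, and none is given.

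**Figure D3:**
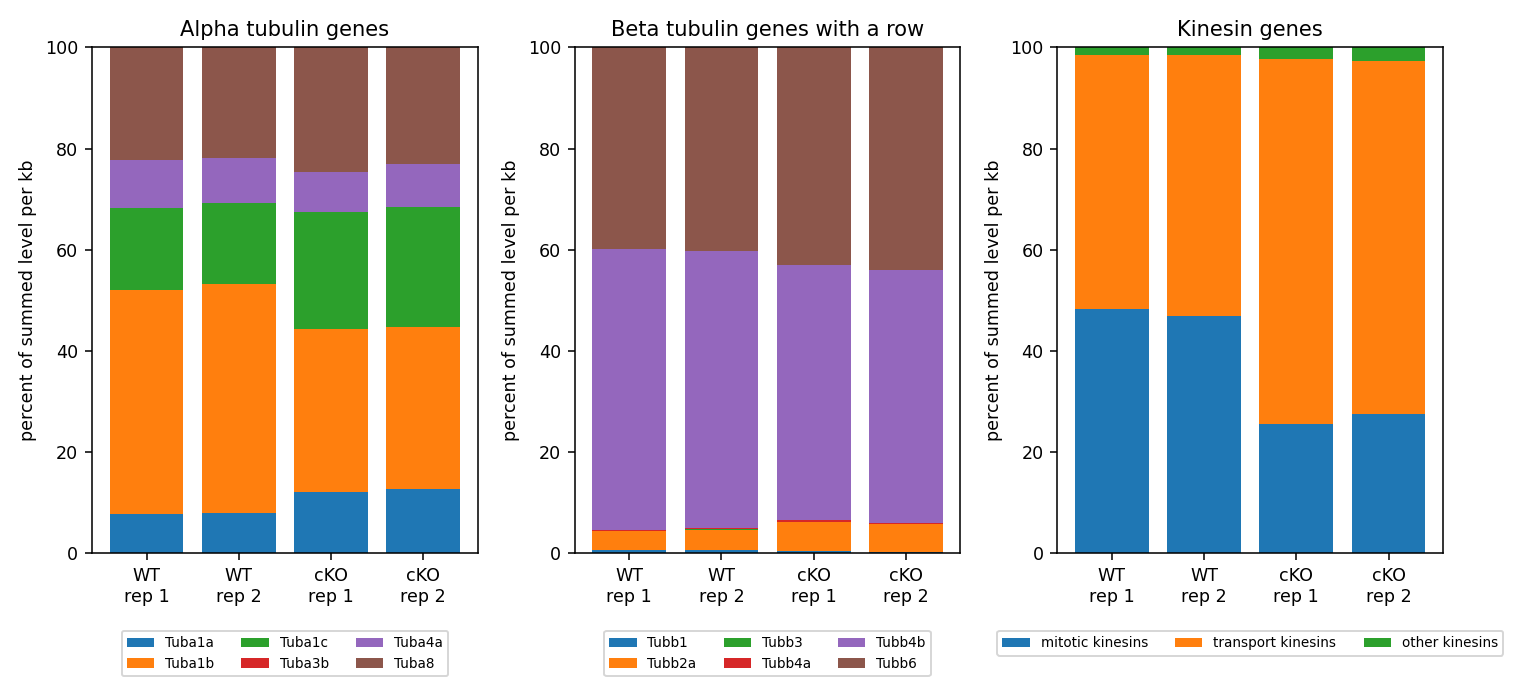
Share of each gene, or of each kinesin group, in the summed level per 1000 exonic bases of its family (percent, vertical axis) in each of the 4 libraries. Tuba1b takes 44.7% of the alpha tubulin level in WT on average and 32.1% in cKO, and the mitotic kinesins shrink from 47.5% to 26.5% of the kinesin level.

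Among 12 tubulins tested 6 fell and 3 rose, beside 17.8% lower and 19.5% higher across all genes tested. The tubulin median of -0.14 lay nearer to 0 than those of the mitotic groups. Tuba1b, the main alpha tubulin of many dividing cells, had levels of 11.74 and 11.80 in WT and 11.07 and 11.06 in cKO, a log2 fold change of -0.71 (SE 0.04, limma adjusted p = 2e-13). Its neighbours on chromosome 15 went the other way: Tuba1a, abundant in neurons, rose from 9.17 and 9.22 to 9.61 and 9.66 (log2 fold change 0.44, SE 0.07, limma adjusted p = 6.47e-06). Tuba1c rose from 10.60 and 10.59 to 10.89 and 10.90 (log2 fold change 0.31 with an SE of 0.04, limma adjusted p = 4.27e-06). The groups did not overlap for any of the 3 genes, which lie within 106.7 kb of each other in GRCm38 (chr15:98931425-99038110). Of their 50-base words 75.5% (Tuba1a), 75.1% (Tuba1b) and 52.7% (Tuba1c) also occur in other genes, such as 46.9% of those of Tuba1a in Tuba1c, so the split of reads between them is uncertain.

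Per exonic length, Tuba1b made up 44.7% ± 0.79 (SD, n = 2) of the alpha tubulin level in WT and 32.1% ± 0.02 in cKO. Tuba1c went from 16.2% ± 0.27 to 23.4% ± 0.26, Tuba1a from 7.82% ± 0.10 to 12.4% ± 0.36, and Tuba8 from 22.1% ± 0.30 to 23.9% ± 1.12. The order of the alpha tubulins in WT was thus Tuba1b, Tuba8, Tuba1c, Tuba4a and Tuba1a, and in cKO Tuba1a stood above Tuba4a, while Tuba1c and Tuba8 lay within their spread of each other. Summed over the 6 genes, alpha tubulin RNA had a log2 level of 13.15 and 13.16 in WT and 12.94 and 12.94 in cKO, a difference of -0.22 that became -0.15 when the libraries were shifted to one median and -0.34 when they were scaled to equal sums. Tuba4a fell by 0.39 log2 units (SE 0.05, limma adjusted p = 2.07e-06), though its exons overlap Stk16 on the opposite strand over 37.3% of their length. Tuba8 had a small fall of 0.11 (limma adjusted p = 0.045) that was lost without WT replicate 1 (limma adjusted p = 0.14), without WT replicate 2 (limma adjusted p = 0.13), without cKO replicate 2 (limma adjusted p = 0.35) and when the libraries were shifted to one median (limma adjusted p = 0.40).

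Beta tubulin RNA with a row was mainly Tubb4b and Tubb6. Tubb4b, a widely expressed beta tubulin, fell from 11.56 and 11.53 in WT to 11.39 and 11.37 in cKO (log2 fold change -0.16, SE 0.04, limma adjusted p = 0.00098). Of the 50-base words of Tubb4b 41.3% also occur in other genes, so part of its reads may not be its own. Tubb6, at 11.30 and 11.31 in WT and 11.39 and 11.41 in cKO, was not called (log2 fold change 0.09, limma adjusted p = 0.064). Tubb2a rose from 7.29 and 7.41 to 7.88 and 7.80 (log2 fold change 0.49, SE 0.12, limma adjusted p = 0.0018); 45.6% of its 50-base words also occur in Tubb2b. Summed over the 6 genes the log2 level was 12.48 and 12.48 in WT and 12.46 and 12.45 in cKO, a difference of -0.03 that became 0.04 when the libraries were shifted to one median and -0.15 when they were scaled to equal sums.

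Cell-type-restricted beta tubulins were low. Tubb1, the beta tubulin of platelets and megakaryocytes, had levels of 4.40 and 4.34 in WT and 3.73 and 2.84 in cKO (log2 fold change -1.09 with an SE of 0.38, limma adjusted p = 0.028). The 2 cKO libraries lay far apart, and the call was lost without WT replicate 1 (limma adjusted p = 0.12), without WT replicate 2 (limma adjusted p = 0.099) and without cKO replicate 2 (limma adjusted p = 0.21). Of 6 tested platelet and megakaryocyte markers 2 rose (Ppbp 4.29-fold and Pf4 by 0.68 log2 units) and 2 fell (Itgb3 3.72-fold and Itga2b 1.16-fold), and their summed log2 level was 12.39 to 12.44 in WT and 13.00 to 13.03 in cKO. Tubb3 and Tubb4a, known from neurons, were not called (log2 fold changes -0.74 and 0.60, limma adjusted p = 0.23 and 0.31). Tubg1, the gamma tubulin that nucleates microtubules, fell from 10.05 and 10.01 to 9.42 and 9.35 (log2 fold change -0.65, SE 0.06, limma adjusted p = 3.87e-09), with groups that did not overlap. The pseudogene Tubb4b-ps1, the only one tested, had a log2 fold change of -0.35 (limma adjusted p = 0.64), and 56.8% of its 50-base words also occur in other genes.

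**Figure D4:**
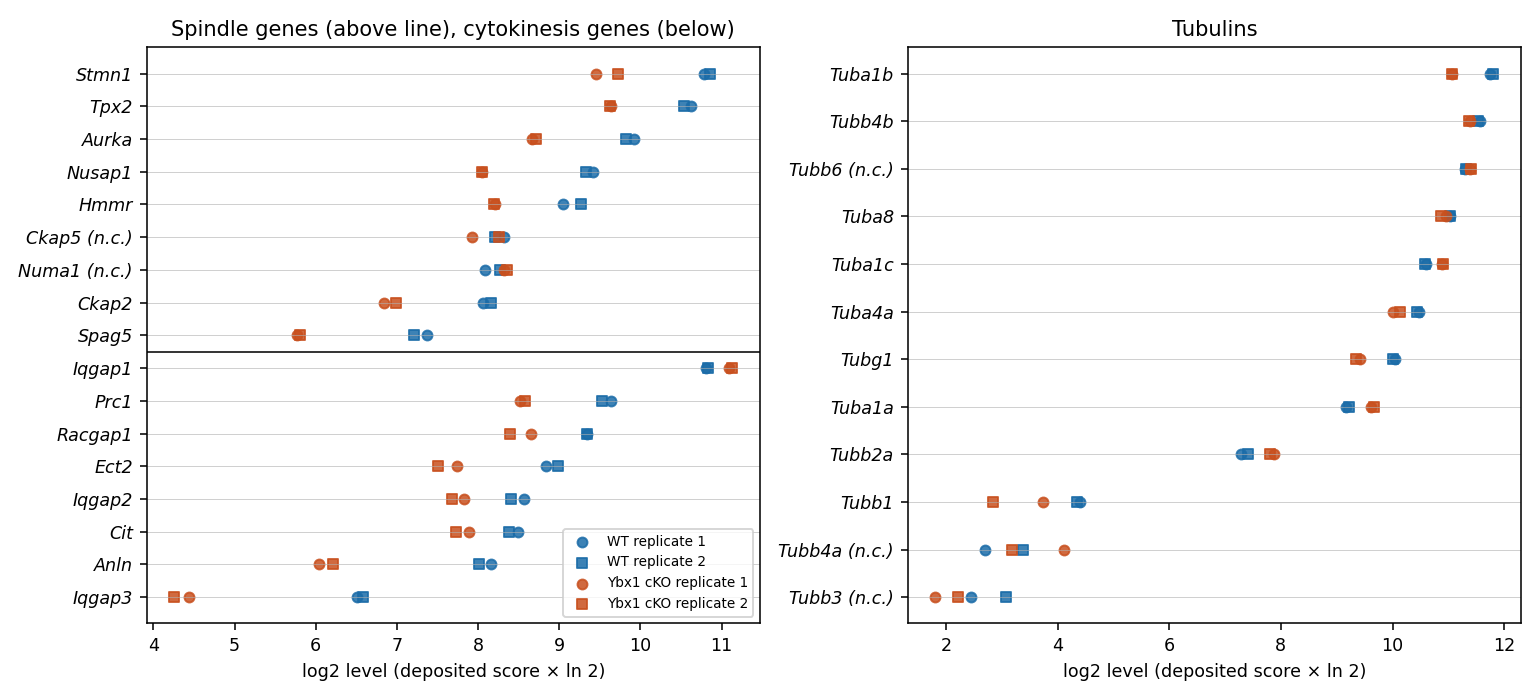
Log2 level (deposited score times ln 2, horizontal axis) of the tested spindle, cytokinesis and tubulin genes in each library, with circles for replicate 1, squares for replicate 2, blue for WT and orange for Ybx1 cKO; n.c. marks genes that were not called. Among cytokinesis genes Iqgap1 alone lies to the right in cKO, and the abundant tubulins differ by less than 1 unit between the groups.

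Partners of these genes that are no members were taken from lists chosen by function. Their counts stand beside 17.8% lower and 19.5% higher across all genes tested. The chromosomal passenger complex, which Kif20a carries, fell in 4 of 4 tested genes (median -1.06), with Aurkb, its kinase, at a log2 fold change of -1.20 and Incenp, its scaffold, at -0.92 (limma adjusted p = 3.6e-12 and 1.43e-11). Of 16 genes of the gamma tubulin ring and augmin complexes, which work with Tubg1, 8 fell and 2 rose (median -0.25), with Tubgcp2, a ring subunit, at -0.49 and the ring's anchor Nedd1 at 0.31 (limma adjusted p = 3.82e-06 and 4.66e-06). Of 23 septins and genes of the RhoA pathway of cytokinesis, 7 fell and 6 rose (median 0.02); the mitotic kinase gene Plk1 had a log2 fold change of -1.12 and Myl12a, a myosin light chain, one of 0.65 (limma adjusted p = 2.99e-13 and 1.6e-11).

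The other lists concern transport and the upkeep of microtubules. In the light chain, tubulin cofactor and end-binding lists the share called was near or below the 37.4% of all genes tested. Of 9 kinesin light chains and adaptors 2 rose and 0 fell: Klc4, a light chain of kinesin-1, by 0.57, and Rhot1, which links motors to mitochondria, by 0.35 (limma adjusted p = 1.54e-07 and 3.18e-06). Of 23 tested genes of dynein and dynactin, the motor that walks the other way along microtubules, 14 rose and 5 fell (median 0.23), with Dctn4, a dynactin subunit, at 0.90 and the dynein light chain Dynlt3 at 0.56 (limma adjusted p = 2.63e-14 and 1.14e-09). Of 20 tubulin cofactors and modifying enzymes 3 rose and 5 fell (median 0.08), among them the folding cofactor Tbcb at 0.45 and Ttll12 at -0.67 (limma adjusted p = 1.86e-08 and 1.08e-06). Of 21 microtubule end-binding, stabilising and severing genes 3 rose and 3 fell (median -0.05), with Fignl1 at -1.21 and the spindle protein Tacc3 at -0.66 (limma adjusted p = 3.28e-10 and 4.74e-10).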

How the data were processed

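RNA of 4 libraries, 2 WT and 2 Ybx1 cKO, was sequenced after oligo dT selection, per the labels' protocols. The submitters' processing notes name GRCm38 and the tools CASAVA, featureCounts, DESeq2 and HISAT2 2.1.0 without saying what each did. The deposited table holds 1 score per gene and library on a log scale of unstated base, from -3.19 to 27.9; the transformation by the authors is not given in the sources used here. All 4 columns matched samples by title.

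Replicate noise by level was close to Poisson noise (median ratio 1.10 in WT, 1.31 in cKO) if scores are log2 levels times 1.44, and 4.83 and 5.92 times it if they are plain log2, so scores were multiplied by 0.693. Estimated instead from how fast the noise fell with the level, a doubling was worth 1.62 (WT) and 1.59 (cKO) score units, above 1.44, so the factor is approximate. Read as plain log2, each log2 fold change would be 1.44 times as large. Because the values are no counts, no interval from counting is given. The 15527 genes whose score reached 1 in 2 or more libraries were tested with limma 3.58.1 in R 4.3.3 (lmFit, eBayes with a mean-variance trend, Benjamini-Hochberg, two-sided). The test was checked on simulated data for the cKO and WT libraries (15599 genes). Changes were placed in 50 genes per fold, all with a mean score above 5, and the other genes were left unchanged. It recovered 44% of genes changed 1.25-fold, 74% at 1.5-fold, 88% at 2-fold and 100% at 4-fold, with 5.556% false calls. These rates may not hold for genes at lower levels or where as many genes differ as here.

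Levels per 1000 exonic bases, gene positions, exon overlaps and 50-base words shared between transcripts used GENCODE M21 on GRCm38, and promoters the RefSeq table (GRCm38.p6). Motifs were searched on both strands, so that CCAAT also counts as ATTGG and TTTGAA as TTCAAA. No protein sequence was used. Plots were drawn with matplotlib 3.10.9.

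The members and lists were chosen with earlier results of these data known. Named genes were the members listed by symbol, the 12 called kinesins with the largest falls and up to 8 with the largest rises, every tubulin tested, up to 2 genes not called at the highest level per role, and up to 2 called genes with the smallest p per other list. Kif14, Kif1a, Kif5c, Kifc2, Kifap3, Kifbp and Tubb4b-ps1 fell outside this rule and were chosen after their values were seen. A few items are not reported here. The 15 alternatives covered the filter, scaling, prior variance, threshold, log base, pairing and leaving out each library; scaling by library sum and the window of 50 bases around the start were added after the data were seen.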

Additional observations from a re-analysis of the deposited data

How the results depend on the processing

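No called member changed sign under any of the 15 alternatives. The count of all genes called, 5803, was 2267 under a prior variance without a level trend (2080 of them among the 5803), 3941 with no filter and 854 at a minimum log2 fold change of 1, and between 4662 and 5803 when a library was left out. Library sum scaling called 2132 higher and 4047 lower, against 3035 and 2768, and put the median of all genes at -0.12.

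Of the members, 33 lower and 8 higher, the trend-free prior called 27 and 3, gaining Kif1a and Kifc2 and losing Iqgap1, Kif14, Kif18b, Kif1b, Kif5b, Kif9, Kifc1, Tuba1c, Tuba4a, Tuba8, Tubb1, Tubb2a and Tubb4b. It called 2 transport kinesins lower (Kifc3 and Kif1a), 0 other kinesins, 1 tubulin and 0 cytokinesis genes higher, and 2 tubulins lower. A minimum log2 fold change of 1 left 21 lower (4 in cytokinesis, 1 tubulin) and 0 higher in each role. With no filter Kif14, Kif1b, Kif9, Tuba8 and Tubb1 lost their calls, and 0 other kinesins were higher. The median shift put 1 mitotic and 5 transport kinesins higher, gaining Kif2a, Kif3a, Kifc2 and Tubb6 and losing Tuba8. Library sum scaling put 1 other kinesin lower, gaining Kif28, Ckap5 and Kifc5b. A mean score of at least 5 gained Kifc2 and Tubb6. Quantile normalization and a robust prior variance each gained Kifc2.

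The medians, -1.21 for mitotic kinesins, 0.11 for transport, 0.47 for other kinesins, -0.14 for tubulins, -1.19 for spindle and -0.93 for cytokinesis genes, became -1.34, -0.016 (reversed), 0.35, -0.26, -1.31 and -1.05 under library sum scaling. As plain log2 they were -1.75, 0.16, 0.68, -0.20, -1.71 and -1.34. For transport kinesins the median was 0.045 with no filter, 0.18 with a mean score of at least 5 and 0.17 with the median shift; for other kinesins it was -0.081 (reversed) with no filter and 0.18 with a mean score of at least 5. The tubulin median was -0.077 with the median shift and -0.23 under quantile normalization. The no-filter and mean-score values rest on other sets of genes; the cause of the rest was not tested.

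Leaving out a library moved the medians from -1.28 to -1.12 for mitotic, 0.094 to 0.21 for transport and 0.032 to 0.58 for other kinesins, and from -1.21 to -1.10 for spindle genes. It moved mitotic kinesins higher between 0 and 1, other kinesins higher between 0 and 1 and lower between 0 and 1. An arm of 1 library is assumed to vary like the other.

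In percentage points, the alpha and beta tubulin shares changed, without division by length, by 3.69 for Tuba1a, -11.0 for Tuba1b, -1.71 for Tuba4a and 1.22 for Tubb2a. As plain log2 the changes were -18.5 for Tuba1b, 10.8 for Tuba1c, 3.90 for Tuba8, 0.81 for Tubb2a, -6.59 for Tubb4b and 5.82 for Tubb6. With 150 bases before the start, the core was in 66.7% of promoters of members that fell.

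Same-numbered libraries did not deviate together (correlation 0.01 over 15527 genes). With 2 libraries a group this value cannot show whether the libraries were prepared in pairs. With the replicate block 6026 genes were called, among them all 5803, and 0 member calls were lost or gained.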
